A study of Mus musculus with 12 samples.

Results

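The enzymes described here assemble triglyceride by the glycerol-3-phosphate route. Their probes were taken as all array probes whose annotated symbol is Gpd1, Gpam, Gpat3 (annotated under the older symbol Agpat9), Agpat2, Agpat3, Lpin1, Lpin2, Dgat1 or Dgat2. This gave 19 probes of 9 genes, of 45281 probes and 19057 named genes on the array. Each probe was followed on its own through 4 groups of 3 bead arrays each. These were livers of Cav1 knockout mice and of wild-type mice, both aged 12 weeks, and gonadal adipose tissue (GWAT) labelled Cav1 knockout and labelled wild type, both from mice aged 8 weeks. All mice were male and of the FVB strain, and all tissue was collected at 3 PM under ketamine and xylazine anaesthesia, although the treatment text speaks of livers alone. Cav1 encodes caveolin-1, the scaffold of the small surface invaginations known as caveolae, and the labels name a knockout of the gene with no tissue-limited driver. Whether the 3 arrays of a group came from separate animals is not stated. The p-values therefore reflect variation among these arrays only, and that variation may be technical.

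In this route, Gpd1 makes glycerol-3-phosphate from an intermediate of glycolysis, and glycerol-3-phosphate acyltransferases (Gpam at the mitochondrial outer membrane, Gpat3 at the endoplasmic reticulum) add the first fatty acid. Acylglycerol-phosphate acyltransferases such as Agpat2 and Agpat3 add the next to give phosphatidic acid, lipins remove its phosphate to give diacylglycerol, and Dgat1 and Dgat2 add the last fatty acid. Adipocytes use the route to store fat and hepatocytes use it for storage and for lipoproteins. In people, loss of AGPAT2 or of CAV1 causes generalized lipodystrophy.

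The Cav1 probe was read first as a check of the labels. In liver it had intensities of 110, 117 and 113 on the knockout arrays, against 172, 167 and 210 on the wild-type arrays, and it lay above background on 0 of 3 knockout arrays and on 3 of 3 wild-type arrays. In GWAT it ran against the labels. Cav1 had intensities of 14598, 15114 and 17476 on the arrays labelled knockout, against 112, 108 and 111 on those labelled wild type. The GWAT groups are therefore called by their labels throughout, every GWAT direction below is labelled knockout minus labelled wild type, and if the labels were exchanged each would turn round.

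Of the 19 probes, 13 were tested in each tissue, at least 1 for every enzyme, and each of the 13 lay above background on all 12 arrays. Background means the 95th percentile of the probes for olfactory, vomeronasal and trace amine receptors on the same array. The other 6 probes (1 of Gpam, 1 of Gpat3, 2 of Lpin1 and 2 of Lpin2) were above background on at most 2 of 3 arrays of any group and were not tested. Their group mean intensities were between 101 and 127 in liver and between 56.6 and 73.1 in GWAT.

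RefSeq promoters (assembly GRCm38.p6, 250 bases before to 50 after the start) were matched for 6 of the 9 enzymes, all but Gpd1, Dgat1 and Dgat2. Those of 3 enzymes whose probes differed in GWAT are shown, on the strand of the gene. Gpat3 is at chr5:100845979-100846278 on the plus strand, Agpat2 at chr2:26604368-26604667 on the minus strand, and the most upstream Gpam start at chr19:55127189-55127488 on the minus strand. Capitals mark matches to the motifs searched, on either strand.
Gpat3: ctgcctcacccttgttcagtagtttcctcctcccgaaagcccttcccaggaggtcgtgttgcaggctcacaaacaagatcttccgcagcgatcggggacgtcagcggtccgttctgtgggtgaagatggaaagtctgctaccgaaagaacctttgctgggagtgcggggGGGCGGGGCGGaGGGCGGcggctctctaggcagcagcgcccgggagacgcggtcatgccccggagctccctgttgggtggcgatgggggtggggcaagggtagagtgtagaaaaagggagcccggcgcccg
Agpat2: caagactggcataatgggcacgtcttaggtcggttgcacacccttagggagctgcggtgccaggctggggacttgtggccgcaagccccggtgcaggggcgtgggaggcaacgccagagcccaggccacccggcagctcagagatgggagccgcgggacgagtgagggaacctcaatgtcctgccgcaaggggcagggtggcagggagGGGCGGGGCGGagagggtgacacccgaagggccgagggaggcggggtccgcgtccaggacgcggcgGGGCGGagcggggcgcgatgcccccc
Gpam: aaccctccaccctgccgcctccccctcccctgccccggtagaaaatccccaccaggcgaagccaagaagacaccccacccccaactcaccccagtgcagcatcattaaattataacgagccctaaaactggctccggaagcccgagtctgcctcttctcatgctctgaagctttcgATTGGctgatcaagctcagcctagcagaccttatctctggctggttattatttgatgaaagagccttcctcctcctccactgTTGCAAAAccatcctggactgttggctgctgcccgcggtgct
The motifs were the GC box GGGCGG, the CCAAT box CCAAT, the E-box CACGTG, the nuclear receptor site AGGTCA, the C/EBP-type site TTNNGCAA and the sterol element TCACNCCAC. With the start as base 1 and the base before it as -1, the Gpat3 promoter held 3 GC boxes, beginning at -81, -76 and -69, and the Agpat2 promoter held 3, beginning at -42, -37 and 25. The first and second GC box of each share 1 base. The Gpam promoter shown held no GC box, but a CCAAT box in reverse (ATTGG) at -74 and a C/EBP-type match at 9. The promoter of a further Gpam start, not shown, held a GC box in reverse (CCGCCC) at -16 and a nuclear receptor site at -196. Among 32851 RefSeq promoters of the same length, 35.7% held a GC box, 37.4% a CCAAT box, 16.3% a nuclear receptor site and 10.8% a C/EBP-type match. Such matches describe letters and do not show that a factor binds.

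In GWAT, 7 of the 13 tested probes passed the threshold, an adjusted p under 0.05 in limma's moderated test with Benjamini-Hochberg adjustment over all probes tested in the tissue. Among all 21305 probes tested in GWAT, 22.5% passed. Of the 7, 5 were higher on the arrays labelled knockout, namely both tested probes of Gpat3 and of Agpat2 and the probe of Dgat2, and 2 were lower, those of Gpd1 and Gpam. Among all tested probes 11.2% were higher and 11.4% lower. Agpat3, Lpin1, Lpin2 and Dgat1 did not pass. The 13 differences ran from -0.82 to 0.47 on the log2 scale, with a median of 0.05, against a median of 0.01 over all tested probes. Without an intensity trend in the fit, 3 of the 13 passed, those of Gpd1, Gpam and Dgat2, and so did 3856 of all 21305 probes. With the trend, the count over all probes was 4800. It was 2806 without wild-type-labelled replicate 2, 2827 without knockout-labelled replicate 2 and 3130 without knockout-labelled replicate 3. In bulk tissue, fewer cells of a type and less RNA per cell cannot be told apart.

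In liver, 0 of the 13 tested probes passed the same threshold, and 0.0584% of all 15408 tested probes did (9 probes, 0.0325% higher and 0.026% lower). Leaving out 1 array moved that count of 9 to between 0 and 296, the highest without knockout replicate 1 and the lowest without knockout replicate 2 or wild-type replicate 2 or 3. At an unadjusted p under 0.05, 4 of the 13 would be counted in liver, where 9.92% of all tested probes were, and 8 of the 13 in GWAT, where 35.6% were. The 13 liver differences ran from -0.45 to 0.83, with a median of -0.07, against -0.02 over all tested probes, and their adjusted p-values lay between 0.241 and 0.95.

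**Figure D1:**
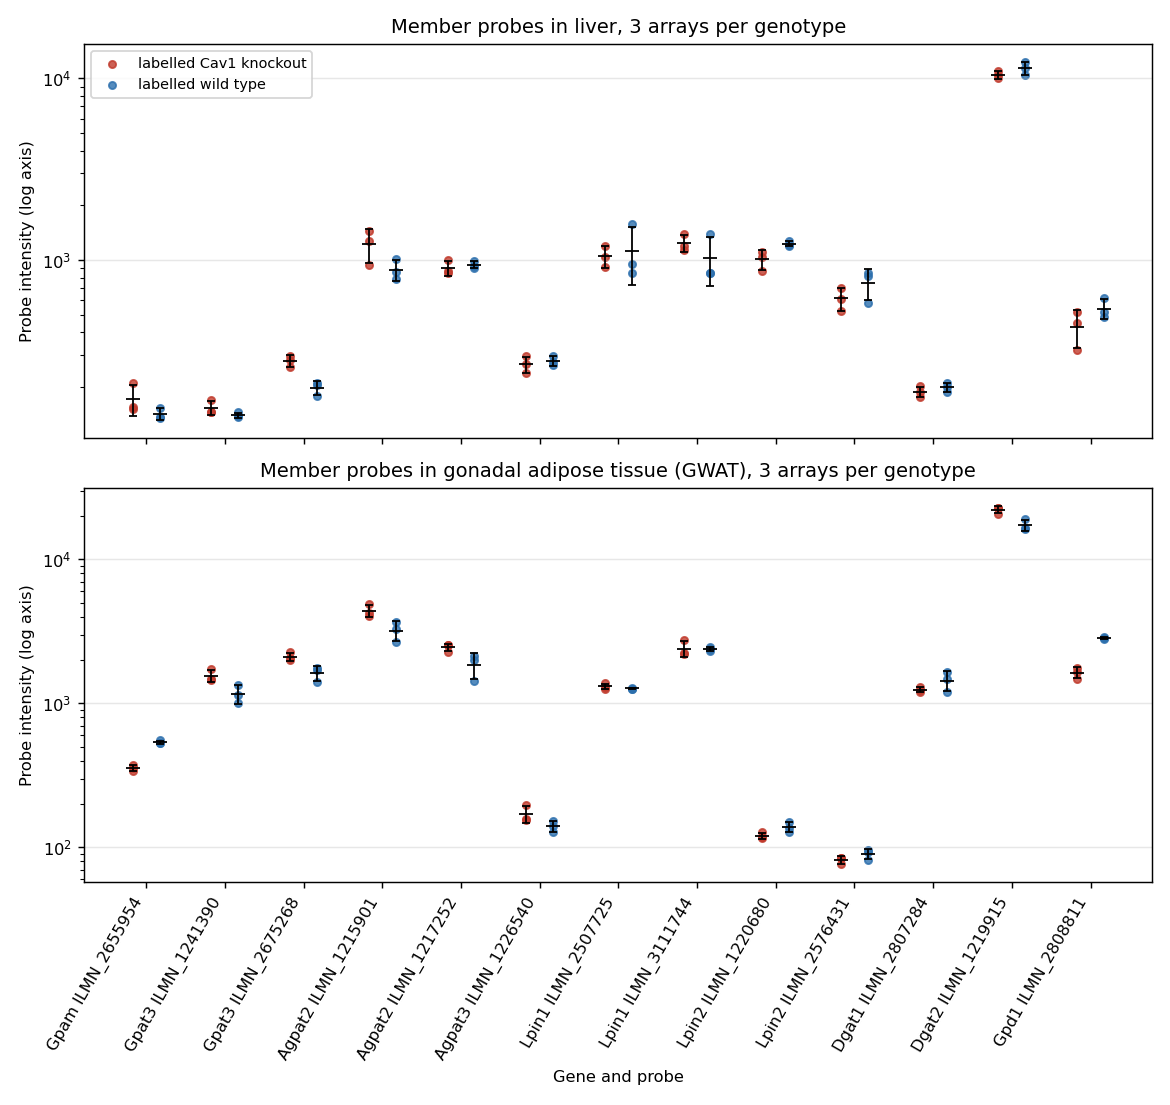
Deposited probe intensities (log axis) of the 13 tested probes in liver (upper panel) and GWAT (lower panel). Points are single arrays, 3 labelled knockout (red, left) beside 3 labelled wild type (blue, right), with the mean and SD in black. In GWAT the points of Gpam and Gpd1 on the arrays labelled knockout lie wholly below those labelled wild type, and those of Gpat3, Agpat2 and Dgat2 wholly above.

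Gpd1, the cytosolic dehydrogenase that supplies the glycerol-3-phosphate backbone, showed the largest GWAT difference among the 13 probes. Its probe had intensities of 1478, 1655 and 1769 on the arrays labelled knockout, against 2811, 2844 and 2866 on those labelled wild type. The groups did not overlap. The means were 1634 ± 147 on the arrays labelled knockout and 2840 ± 27.3 on those labelled wild type (SD, n = 3 each). The log2 difference of background-corrected intensities was -0.82 (SE 0.08), with a limma adjusted p of 5.2e-05. In liver, Gpd1 had intensities of 519, 447 and 320 in knockout mice, against 485, 616 and 518 in wild-type mice. The liver groups overlapped, with a log2 difference of -0.45 (95% interval -0.90 to 0.01, limma adjusted p 0.511).

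Gpam, the mitochondrial acyltransferase of the first step, was also lower in GWAT labelled knockout. Intensities of its probe ILMN_2655954 were 342, 355 and 371 on the arrays labelled knockout, against 529, 530 and 553 on those labelled wild type. The arrays of each label lay close together and the groups did not overlap. The means were 356 ± 14.9 on the arrays labelled knockout and 537 ± 13.9 on those labelled wild type (SD, n = 3 each), and the log2 difference was -0.66 (SE 0.09, limma adjusted p 0.00039). In liver the same probe read 151, 154 and 209 in knockout mice, against 154, 135 and 137 in wild-type mice. The highest liver value came from knockout replicate 3 and the groups overlapped. The liver difference was 0.63, with a 95% interval of 0.02 to 1.23 and a limma adjusted p of 0.488.

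Gpat3, the endoplasmic reticulum enzyme of the same step, differed in the opposite direction from Gpam in GWAT, on both tested probes. Probe ILMN_2675268 had intensities of 2257, 2077 and 1994 on the arrays labelled knockout, against 1395, 1753 and 1698 on those labelled wild type. Every array labelled knockout was above every array labelled wild type, with a log2 difference of 0.40 (SE 0.10, limma adjusted p 0.0125). Probe ILMN_1241390 had intensities of 1722, 1468 and 1458 on the arrays labelled knockout, against 999, 1337 and 1146 on those labelled wild type. Its groups did not overlap either, and the difference was 0.44 (SE 0.11, limma adjusted p 0.017).

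In liver both Gpat3 probes lay at lower percentiles of the array than in GWAT. Probe ILMN_2675268 read 257, 281 and 296 in knockout livers, against 211, 177 and 206 in wild-type livers. The groups did not overlap, and the log2 difference was 0.83 (95% interval 0.41 to 1.25), the largest of the 13 in liver, but the limma adjusted p was 0.241. Probe ILMN_1241390 read 146, 145 and 170 in knockout livers, against 145, 138 and 137 in wild-type livers. These groups also did not overlap, by a narrow margin, with a difference of 0.35 (95% interval -0.14 to 0.84, limma adjusted p 0.645).

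Agpat2, which makes phosphatidic acid and whose loss in people empties the fat depots, was higher in GWAT labelled knockout on both of its probes. Probe ILMN_1215901 had intensities of 4052, 4874 and 4249 on the arrays labelled knockout, against 2664, 3667 and 3269 on those labelled wild type. The groups did not overlap, and the log2 difference was 0.47 (SE 0.11, limma adjusted p 0.0126). Probe ILMN_1217252 had intensities of 2522, 2532 and 2288 on the arrays labelled knockout, against 1422, 2013 and 2123 on those labelled wild type. Wild-type-labelled replicate 1 was the lowest array on both probes, and the second probe's difference was 0.43 (SE 0.13, limma adjusted p 0.0365). That call was lost without any 1 of 4 arrays: each of the 3 labelled knockout, or replicate 2 labelled wild type, with adjusted p up to 0.12. For ILMN_1215901 it was lost without knockout-labelled replicate 2 (adjusted p 0.0658), and for Gpat3 ILMN_1241390 without knockout-labelled replicate 1 (adjusted p 0.0546).

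In liver the Agpat2 probes did not move together. Probe ILMN_1215901 read 939, 1277 and 1444 in knockout livers, against 1013, 785 and 854 in wild-type livers. The groups overlapped through knockout replicate 1, and the log2 difference was 0.49 (95% interval 0.12 to 0.87, limma adjusted p 0.407). Probe ILMN_1217252 read 843, 1003 and 869 in knockout livers, against 985, 907 and 931 in wild-type livers, a difference of -0.07 (limma adjusted p 0.9). Without knockout replicate 1, Agpat2 ILMN_1215901 and Gpat3 ILMN_2675268 would pass in liver, with adjusted p-values of 0.0313 and 0.0381. The same 2 probes would pass with array weights, with adjusted p-values of 0.0256 and 0.011, a setting in which 707 of all liver probes passed.

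Agpat3, an acyltransferase of the same step, did not pass in either tissue. Its probe had intensities of 155, 158 and 196 on GWAT arrays labelled knockout, against 152, 127 and 140 on those labelled wild type. The groups did not overlap, with a log2 difference of 0.37 (95% interval 0.03 to 0.72, limma adjusted p 0.113). In liver its difference was -0.10 (limma adjusted p 0.886), with overlapping groups.

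Lpin1, the phosphatidic acid phosphatase missing in fatty liver dystrophy mice, gave 2 tested probes with overlapping groups in both tissues. In GWAT, probe ILMN_3111744 read 2739, 2190 and 2241 on the arrays labelled knockout, against 2325, 2384 and 2472 on those labelled wild type. The difference was -0.01, and its 95% interval of -0.21 to 0.19 bounds how large a difference these arrays allow. Probe ILMN_2507725 gave 0.05, with an interval of -0.10 to 0.21. In liver, wild-type replicate 3 was far above the other wild-type livers on both probes. ILMN_3111744 read 1133, 1383 and 1200 in knockout livers, against 852, 848 and 1382 in wild-type livers (difference 0.34, limma adjusted p 0.583). ILMN_2507725 read 916, 1198 and 1032 in knockout livers, against 852, 947 and 1576 in wild-type livers (difference -0.06, limma adjusted p 0.95).

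Lpin2, a phosphatidic acid phosphatase prominent in liver, had lower values on both tested probes in knockout livers and in GWAT labelled knockout. None of these differences passed, and it was the GWAT labelled knockout that had high Cav1. Probe ILMN_1220680 read 1044, 1111 and 866 in knockout livers, against 1215, 1196 and 1276 in wild-type livers. The liver groups did not overlap, with a log2 difference of -0.32 (95% interval -0.61 to -0.03, limma adjusted p 0.457). In GWAT it read 118, 127 and 116 on the arrays labelled knockout, against 128, 150 and 137 on those labelled wild type, again without overlap (difference -0.30, limma adjusted p 0.144). Probe ILMN_2576431 differed by -0.32 in liver and by -0.28 in GWAT, with overlapping groups in both.

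Dgat2, 1 of the 2 unrelated enzymes that complete triglyceride, was among the brightest probes of both tissues, at percentiles of 99.8 to 99.9 on the GWAT arrays and 99.4 to 99.5 on the liver arrays. In GWAT it had intensities of 20643, 22802 and 22802 on the arrays labelled knockout, against 16482, 18925 and 16139 on those labelled wild type. The groups did not overlap, and the log2 difference was 0.36 (SE 0.08, limma adjusted p 0.00635). In liver it read 10373, 9986 and 10946 in knockout mice, against 10425, 12279 and 11420 in wild-type mice. These groups overlapped, with a difference of -0.12 (95% interval -0.33 to 0.09, limma adjusted p 0.713).

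Dgat1, the other enzyme of the last step, did not follow Dgat2 in passing the threshold in GWAT. Its intensities were 1195, 1234 and 1300 on the arrays labelled knockout, against 1196, 1640 and 1478 on those labelled wild type. The groups overlapped through wild-type-labelled replicate 1, and the log2 difference was -0.21 (95% interval -0.44 to 0.03, limma adjusted p 0.199). Without that array Dgat1 would pass, with an adjusted p of 0.0146, and likewise with array weights (0.0378). In liver the difference was -0.16 (limma adjusted p 0.83).

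**Figure D2:**
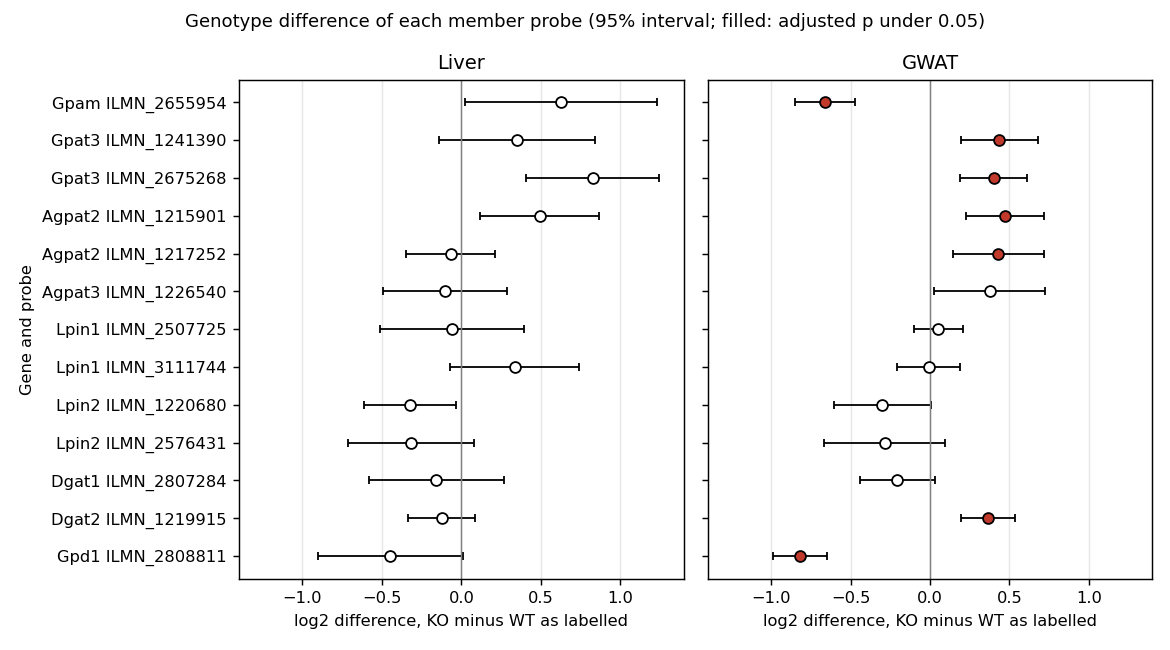
Log2 difference in background-corrected intensity, knockout minus wild type as labelled (x axis), for each tested probe (y axis) in liver (left) and GWAT (right). Circles are limma estimates with 95% intervals, and filled circles have an adjusted p under 0.05. No liver circle is filled, and 7 GWAT circles are, from -0.82 for Gpd1 to 0.47 for Agpat2.

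Counting probes whose 3 knockout arrays did not overlap the 3 wild-type arrays, GWAT had 6 of 13 higher and 3 of 13 lower as labelled, where 39.3% of all tested probes did not overlap (20.6% higher and 18.8% lower). Liver had 2 of 13 higher and 1 of 13 lower, where 15.4% of all tested probes did not overlap (6.79% higher and 8.59% lower).

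Whether the genotype difference itself differed between tissues was tested as an interaction in limma, with the 12 arrays fitted jointly. As labelled, 2 of 13 probes passed, where 6.12% of 14365 probes did. Gpam gave a GWAT minus liver difference of -1.29 (SE 0.31, limma adjusted p 0.0207), and Dgat2 gave 0.49 (SE 0.12, limma adjusted p 0.0247). The Gpam call was lost without any 1 of 4 arrays, namely liver wild-type replicate 2 or 3 or GWAT replicate 2 of either label (adjusted p up to 0.0566). The Dgat2 call was lost without any 1 of 7 arrays, namely liver wild-type replicate 2 or 3, liver knockout replicate 2, GWAT labelled wild type replicate 1 or 3, or GWAT labelled knockout replicate 2 or 3 (adjusted p up to 0.0784). Gpd1 would pass without liver knockout replicate 3 (adjusted p 0.0263). The size of the Gpam term depended on the background correction. With none it was -0.85 rather than -1.29 (limma adjusted p 0.00243), and the Gpam liver difference was 0.26 rather than 0.63.

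Since Cav1 ran against the GWAT labels, the same term was computed with the GWAT direction turned, so that arrays with low Cav1 were set over arrays with high Cav1 in both tissues. This alternative was added after the Cav1 values were seen. Then 4 of 13 probes passed, where 7.62% of all probes did, and neither Gpam (0.04, limma adjusted p 0.961) nor Dgat2 (-0.24, limma adjusted p 0.232) was among them. Gpd1 gave 1.27 (limma adjusted p 0.00543), Gpat3 ILMN_2675268 -1.23 (0.00222) and Agpat2 ILMN_1215901 -0.96 (0.0153), and these 3 passed without each of the 12 arrays in turn. Gpat3 ILMN_1241390 gave -0.79 (0.0483) and passed in 3 of the 12 fits that leave out 1 array. It was lost (adjusted p up to 0.127) without any GWAT array, liver wild-type replicate 2 or 3, or liver knockout replicate 3. In this direction Gpd1 was higher in low-Cav1 GWAT while Gpat3 and Agpat2 were lower. The liver differences of Gpd1, both Gpat3 probes and Agpat2 ILMN_1215901 had the opposite signs, though none passed by itself, while Agpat2 ILMN_1217252 was below 0 in liver too (-0.07).

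**Figure D3:**
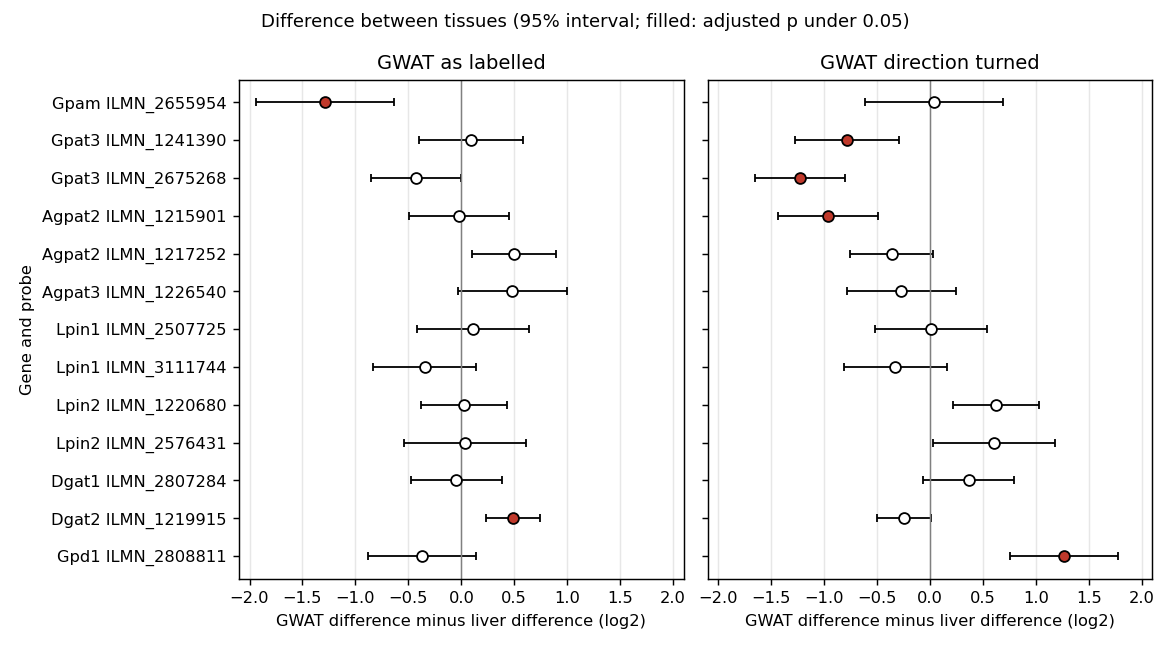
Difference between tissues of the genotype difference, GWAT minus liver on the log2 scale (x axis), for each tested probe (y axis), as labelled (left) and with the GWAT direction turned (right). Circles are limma interaction terms with 95% intervals, and filled circles have an adjusted p under 0.05. Gpam and Dgat2 are filled on the left, and Gpd1, Gpat3 (both probes) and 1 Agpat2 probe on the right.

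The tissues were normalized apart and differ in age, so levels were not tested between them and only a probe's rank on its own array is given. Of the 13 probes, 9 had a higher percentile on every GWAT array than on any liver array, 3 had a lower one, and 1 (Lpin1 ILMN_2507725) overlapped. The same count was not made over all probes, so it is not known whether these shares are unusual. The percentile of Dgat1 was 94.4 to 95.9 in GWAT and 79.4 to 82.3 in liver. That of Gpat3 ILMN_2675268 was 95.2 to 97.1 in GWAT and 79.6 to 86.5 in liver. The 3 lower probes were those of Agpat3 and Lpin2. For Lpin2 ILMN_1220680 it was 70.0 to 74.1 in GWAT and 94.2 to 95.7 in liver.

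Other genes around the route were read from 5 lists, with the brightest probe of each gene. Over all genes tested this way, 12.6% were higher and 12.2% lower in GWAT as labelled, with a median difference of 0.01. Isoforms of the same steps had 2 of 11 measured genes higher and 3 lower, with a median of -0.07. Agpat4, a lysophosphatidic acid acyltransferase, had a mean intensity of 362 ± 9.43 on the arrays labelled knockout, against 767 ± 24.9 on those labelled wild type (SD, n = 3 each), a log2 difference of -1.19 (limma adjusted p 5.7e-06). Lpin3, the remaining lipin, differed by -0.86 (limma adjusted p 0.00208), and Mogat2, which acylates monoacylglycerol, by 0.88 (limma adjusted p 0.00723). Agpat4 was thus lower where Agpat2 was higher, under the same labels. The brightest Plpp3 probe did not pass (-0.14, limma adjusted p 0.198), but a further Plpp3 probe was lower (-0.41, 0.00506).

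Of the substrate supply genes, 1 of 6 measured was higher and none lower, with a median of 0.03. This was Aqp7, the glycerol channel of adipocytes, with 1998 ± 49.1 on the arrays labelled knockout, against 1628 ± 104 on those labelled wild type (SD, n = 3 each) and a log2 difference of 0.30 (limma adjusted p 0.0125). Its other 3 probes differed by 0.37, 0.91 and 0.56 and also passed. The brightest Aqp9 probe did not pass (-0.21, limma adjusted p 0.731), but a further Aqp9 probe was lower (-1.20, limma adjusted p 0.0228). On the brightest probe 1 array labelled wild type read 643, against 220 and 227 on the others. Whether the further probe rests on that array was not examined. Among the phospholipid branch enzymes, only some of which themselves draw on the same phosphatidic acid or diacylglycerol, 4 of 16 were higher and none lower, with a median of 0.18. The largest were Ptdss2, a phosphatidylserine synthase, at 0.41 (limma adjusted p 0.0132), Cept1, a choline and ethanolamine phosphotransferase, at 0.40 (0.0149), and Pemt, which methylates phosphatidylethanolamine, at 0.34 (0.0431). A further Ptdss2 probe went the other way without passing (-0.39, limma adjusted p 0.104). For Pisd the brightest probe did not pass (0.18, limma adjusted p 0.519). Of its further probes, one was higher (0.47, 0.0457) and another did not pass (0.51, 0.0658).

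For droplet formation and lipin control, 1 of 4 measured genes was higher, with a median of 0.16. It was Tmem159, which encodes the seipin partner also called LDAF1, at 1029 ± 57.0 on the arrays labelled knockout, against 771 ± 9.88 on those labelled wild type (SD, n = 3 each), a difference of 0.44 (limma adjusted p 0.00233). Of the transcription regulators, 1 of 9 measured was higher and 2 lower, with a median of -0.07. Ppargc1a, the coactivator PGC-1alpha, was higher by 0.79 (limma adjusted p 0.00191), with means of 139 labelled knockout and 98.5 labelled wild type. Cebpb, an early adipogenic factor, had 1904 ± 93.9 on the arrays labelled knockout, against 2917 ± 253 on those labelled wild type (SD, n = 3 each), a difference of -0.62 (limma adjusted p 0.000361). Cebpa, a factor of mature adipocytes, differed by -0.41 (limma adjusted p 0.0207). The brightest Pparg probe did not pass (-0.03, limma adjusted p 0.804), but further Pparg probes were higher by 0.52 (limma adjusted p 0.021) and 0.70 (0.00986). For Mlxipl the brightest probe did not pass (-0.23, limma adjusted p 0.0635), but a further probe was lower (-0.42, 0.0325).

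In liver, none of the genes in these 5 lists passed (9, 5, 14, 4 and 9 measured, in the order above), where 0.0886% of all genes read this way did (0.0443% higher and 0.0443% lower).

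**Figure D4:**
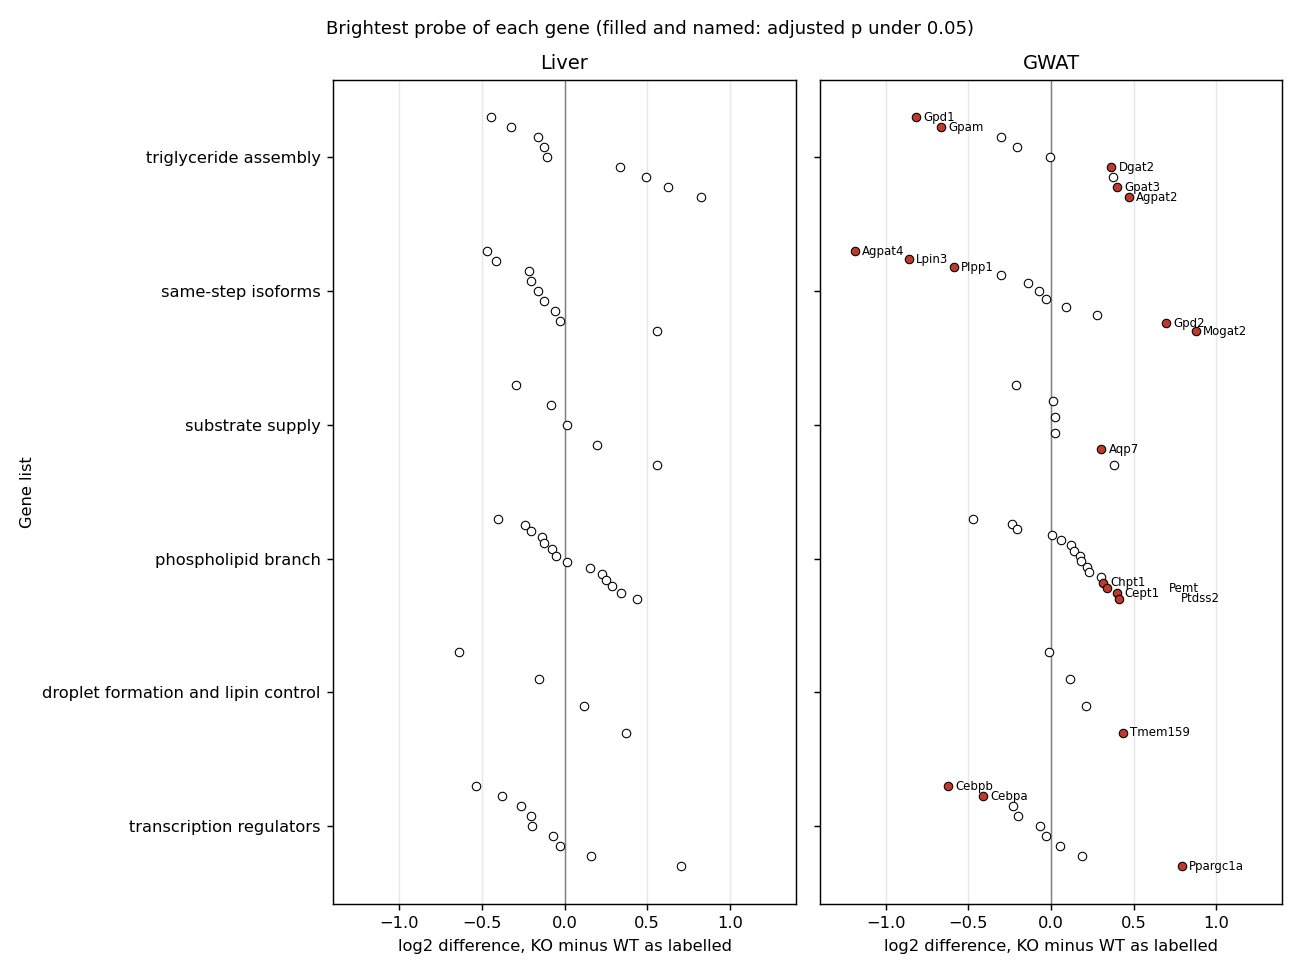
Log2 difference in background-corrected intensity, knockout minus wild type as labelled (x axis), of the brightest probe of each gene in the enzymes described here and 5 lists around them (y axis), in liver (left) and GWAT (right). Each circle is 1 gene, and filled, named circles have an adjusted p under 0.05. The lowest filled circle is Agpat4 at -1.19 and the highest Mogat2 at 0.88, both in GWAT.

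Markers of the tissues and of other cell types were summed over the measured genes of each list. All 8 hepatocyte markers were measured in liver and none passed (summed intensity 93891 to 115529 in knockout livers, against 96881 to 98053 in wild-type livers), and of the adipocyte markers Adipoq, Plin1, Cidec, Lipe and Fabp4 were below background there. Lep and Plin4 were measured in liver and did not pass (sums 293 to 307 in knockout livers, against 291 to 321 in wild-type livers). In GWAT, 7 adipocyte markers were measured, with 2 higher (Lep and Plin1) and 1 lower (Cidec) as labelled, and sums of 67791 to 70787 on the arrays labelled knockout, against 70510 to 72190 on those labelled wild type. The other tested Plin1 probe did not pass (-0.12, limma adjusted p 0.643). Of the hepatocyte markers, Alb, Apob, Tat, Cps1, Fgb and Tdo2 were below background in GWAT, and Ttr and Apoa1 were measured near it and did not pass (sums 133 to 148 on the arrays labelled knockout, against 143 to 146 on those labelled wild type). Some of these probes were near background in their own tissue too, so their absence from the other says little. In liver, mean intensities were 124 in knockout and 129 in wild-type mice for Tat, and 124 and 116 for Fgb. For Fabp4 in GWAT they were 86.1 labelled knockout and 82.2 labelled wild type.

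Markers of other cell types also differed with the GWAT labels, where 12.6% of all genes read this way were higher and 12.2% lower. Of the skeletal muscle markers, 3 of 4 measured were higher on the arrays labelled knockout (sums 1826 to 2905, against 843 to 885 on those labelled wild type), while Ckm, Tnnt3, Myh4 and Pvalb were below background. The other tested Mylpf probe did not pass (0.91, limma adjusted p 0.108). For smooth muscle, 4 of 5 were higher (12115 to 20303 labelled knockout, against 8798 to 10690 labelled wild type). Acta2 made up most of these sums (mean 12129 labelled knockout, 8248 labelled wild type). Its other tested probes did not pass (0.27, 0.39 and 0.53, limma adjusted p 0.376, 0.187 and 0.0601), and the Myh11 groups overlapped. For duct epithelium 2 of 5 were higher, Aqp2 and Fxyd4 (1391 to 2234 labelled knockout, against 1028 to 1793 labelled wild type). The other measured duct markers, Krt8 (-0.22), Krt18 (0.22) and Cdh1 (-0.03), did not pass, and each had 1 value labelled wild type far above the other two (Krt8 1086 against 613 and 637, Krt18 380 against 151 and 154, Cdh1 177 against 92.2 and 95.7). Of the macrophage markers, 3 of 7 were lower (10624 to 11349 labelled knockout, against 12318 to 14200 labelled wild type), and all 7 were below 0. The brightest Adgre1 probe did not pass (-0.23, limma adjusted p 0.281), but further Adgre1 probes were lower (-0.59, 0.0359, and -0.74, 0.00146). A further Lyz2 probe was above 0 without passing (0.21, limma adjusted p 0.42). Of the brown fat markers, Cidea was higher and Cox7a1 did not pass (0.18, limma adjusted p 0.338), while Ucp1 and Elovl3 were below background. Endothelial markers had 1 of 6 higher and 1 lower, and 0 of 4 mesothelial markers passed. Their part in the enzyme results was not tested. In liver, 1 of 7 macrophage markers, Lyz2, was higher in knockout mice, where 0.0443% of all genes read this way were (sums 3142 to 3267 in knockout livers, against 2533 to 2736 in wild-type livers). The other tested Lyz2 probe did not pass (0.24, limma adjusted p 0.691).

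For the 3 enzyme probes that differed most in GWAT, the probes of other genes with the most similar profile were found, by root mean square log2 distance over 12 arrays after centring each tissue. Nearest to Gpd1 were Sh3pxd2a (0.129), Pld3 (0.15) and Stab1 (0.153), where the median distance of all 12461 probes was 0.441. Nearest to Gpam were Sidt2 (0.131), Ogt (0.139) and Cxcl12 (0.153), against a median of 0.47, and nearest to Agpat2 ILMN_1215901 were Decr2 (0.101), Mrps31 (0.111) and Ube2l6 (0.125), against 0.369.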

How the data were processed

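RNA was extracted with Trizol and column clean-up, checked on a Bioanalyser and made into biotin-labelled cRNA, per the labels' protocols. The deposited values are linear probe intensities on 12 Illumina bead arrays. Judging from the values, the authors had quantile-normalized them within each tissue (the largest gap between sorted intensities was 0.46% for liver and 1.22% for GWAT) and subtracted no background (lowest intensity 84.0 in liver and 40.6 in GWAT). The normalization software was not given in the sources used here. Another 48 columns carry chip positions that match no sample label, so they were left aside, control probes and detection p-values included.

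Probes were named from the platform annotation (34885 with 1 symbol, 18 with several, 10378 with none; 34807 matched to RefSeq). Intensities were background-corrected with limma 3.58.1 in R 4.3.3 by the normexp model, with 1528 olfactory, vomeronasal and trace amine receptor probes standing in for negative controls and an offset of 16, and log2 values were taken. No further quantile normalization was applied, although it had been planned, because the deposited values already carried it. The 95th percentile of the receptor probes was 121 to 124 on the liver arrays, with 33.7% to 36.5% of probes above it, and 70.3 to 73.8 on the GWAT arrays, with 44.8% to 48.6% above it. Probes above it on at least 3 of 6 arrays of a tissue were tested, each on its own, two-sided, in each tissue with lmFit and trended eBayes, and by an interaction term over all 12 arrays. P-values were adjusted by Benjamini-Hochberg over all tested probes, and intervals are at 95%. The number of arrays limits the precision.

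The enzymes, gene lists and tests were chosen with earlier results of these data known. The text names all enzyme probes, Cav1, up to 3 passing genes per pathway list with the largest difference, and the 3 nearest profiles of 3 probes. Marker genes named beside these, and the probes of Aqp9, Pparg, Mlxipl, Plpp3 and Pisd, were chosen after their values were seen. Genes of the lists that the annotation does not name, such as Gk and Acsl1, were not analysed here. Replicate numbers are shared by the groups, but same-numbered arrays did not deviate together (correlations of -0.02 to 0.02 in liver and -0.01 to 0.11 in GWAT), so no block was used. Alternatives tried were normexp without control probes, uncorrected intensities, no filter, a stricter filter, no intensity trend, robust eBayes, array weights, a replicate block, the brightest probe per gene, all arrays normalized together, each array left out and, added after the data were seen, the GWAT direction turned.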

Additional observations from a re-analysis of the deposited data

Results flagged for a closer look

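The genotype difference of 2 enzyme probes differed between tissues by the interaction term. Gpam differed by -1.29 (limma adjusted p 0.0207), from -0.66 in GWAT as labelled against 0.63 in liver. With no background correction the Gpam term was -0.85. Dgat2 differed by 0.49 (limma adjusted p 0.0247), from 0.36 in GWAT as labelled against -0.12 in liver. With the GWAT direction turned, the terms were 0.04 and -0.24 and neither passed. As labelled, the Gpam call was lost without any 1 of 4 arrays and the Dgat2 call without any 1 of 7, named above, and Dgat2 also with no trend (adjusted p 0.108).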

How the results depend on the processing

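Over the single-probe results, 461 alternative values kept direction and side of the threshold. Keeping direction, 24 lost the call and 11 gained one, and 22 turned sign. Values that turned sign were counted only there, even where the call also changed. With GWAT turned, these included lost calls of Gpam and Dgat2 and gained calls of Gpd1 and Gpat3 ILMN_1241390. Enzyme probes passing in liver numbered 2 with array weights and 0 to 2 with 1 array left out, against 0 (4 at an unadjusted p under 0.05 in limma). Over all liver probes the count was 9 of 15408 in the main fit and 15 of 45281 with no filter. It was 707 with array weights, 0 with no trend (1422 at an unadjusted p under 0.05) and 0 to 296 with 1 array left out. In GWAT, enzyme probes passing numbered 3 with no trend and 5 to 8 with 1 array left out, against 7. Among all GWAT probes, 3856 of 21305 passed with no trend and 2886 of 11568 with the brightest probe per gene, against 4800 of 21305. With 1 array left out, 2806 to 4358 passed (2806, 2827 and 3130 without GWAT wild-type-labelled replicate 2 and knockout-labelled replicates 2 and 3). No trend ended the calls of Gpat3 (adjusted p 0.0595 and 0.053) and Agpat2 (0.0539 and 0.0995), and Agpat2 ILMN_1217252 was also lost with no filter (0.0507) and robust eBayes (0.056). Gpd1, Gpam and Dgat2 in GWAT passed in every alternative run. Between tissues, the count was 1 with no trend, 4 with array weights, 4 with GWAT turned and 0 to 3 with 1 array left out, against 2 (0 without liver wild-type replicate 2 or 3 or GWAT knockout-labelled replicate 2). Signs turned in liver with array weights for Agpat2 ILMN_1217252 (0.0459), Agpat3 (0.0465) and Lpin1 ILMN_2507725 (0.0576), and between tissues for Agpat2 ILMN_1215901 with no background correction (0.015) and all arrays normalized together (0.12). With GWAT turned the terms were 0.0373 for Gpam, -0.79 for Gpat3 ILMN_1241390, -0.24 for Dgat2 and 1.27 for Gpd1. With 1 array left out, values ran from -0.22 to 0.0133 for Agpat3 in liver, -0.25 to 0.24 for Lpin1 ILMN_2507725 in liver, -0.11 to 0.0508 for Lpin1 ILMN_3111744 in GWAT, and between tissues -0.0193 to 0.27 for Gpat3 ILMN_1241390 and -0.22 to 0.12 for Agpat2 ILMN_1215901. The cause was not tested. With the replicate number as a block, the enzyme counts were 0 in liver, 7 in GWAT and 2 between tissues. With 3 arrays a group, small differences are not detectable, and probes near background are compressed. The size of a difference on such probes also depends on the background correction.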

Other observations

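Gpd2, the mitochondrial enzyme that oxidizes glycerol-3-phosphate, had 951 to 1081 on GWAT arrays labelled knockout, against 630 to 656 on those labelled wild type, a log2 difference of 0.69 (limma adjusted p 0.000171), opposite in sign to its cytosolic counterpart Gpd1. Plpp1, a phosphatidate phosphatase of the plasma membrane, differed by -0.59 in GWAT as labelled (limma adjusted p 0.00119), and its other 2 tested probes by -0.56 (0.00435) and -0.14 (0.722). Chpt1, which makes phosphatidylcholine from diacylglycerol, differed by 0.31 (limma adjusted p 0.00846). These 3 genes passed but stood behind the 3 largest of their lists, and were named after their values were seen.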
